A study of Homo sapiens with 6 samples.

Results

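The genes of DNA replication and S phase were examined in human forebrain organoids given amyloid-β peptide Aβ42. They are 50 named genes that build, load, drive or accompany the replication fork. They were taken by symbol from a table of 18056 genes, and all 50 are listed there and had enough reads to be tested. The organoids were grown from the wild-type induced pluripotent stem cell line DYR0100 by a dorsal forebrain protocol, as aggregates that form tissue resembling the embryonic cortex. There were 3 vehicle libraries and 3 libraries from organoids exposed to 5 µM Aβ42, all after 6 days, in 1 labelled batch, and the design text calls the replicates independent. All 6 come from 1 cell line, so the replicates do not sample different donors, and the sources used here do not say how many organoids went into a library or how old they were. Aβ42 is the aggregation-prone form of the peptide cut from the amyloid precursor protein.

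A replication origin is licensed in G1 when the origin recognition complex (ORC), CDC6 and CDT1 load the ring of MCM2 to MCM7 onto DNA, and it fires in S phase when CDC45 and the GINS proteins turn that ring into the moving helicase. Polymerases, the sliding clamp PCNA and its loader then copy the strands, while ribonucleotide reductase and thymidylate synthase supply the nucleotides. Transcription of most of these genes rises at the G1/S boundary through E2F factors, which the retinoblastoma family holds back until cyclin-dependent kinases release them. In the developing cortex the cycling cells are mainly radial glia and intermediate progenitors, and neurons have left the cycle.

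Promoter sequences are shown because shared E2F control is what these genes are known for, and because the members can then be read against it. The E2F-type word searched was TTTCCCGC, TTTCGCGC, TTTGCCGC or TTTGGCGC on either strand, in 250 bases before and 50 bases after the most upstream start of each gene in RefSeq (GRCh38.p14). Of 45 members matched by Entrez gene ID, 26 (57.8%) held the word, against 587 of 11307 tested genes matched (5.19%) and 911 of all 27305 genes in the sequence table (3.34%). The cell cycle homology region word TTTGAA, a mark of many mitotic promoters, was in 1 member window (2.22%, RRM1) and in 10.1% of the tested genes matched. Below, capitals mark E2F-type words before the start site, read 5′ to 3′ on the strand of the gene, and words on the other strand appear as their reverse complement. E2F1, E2F2, DTL, UHRF1, HELLS, MCM3, MCM7 and PCNA are shown as members with a log2 fold change below 0, and MCM6 and LIG1 as members whose promoters hold the word and whose transcripts lay close to vehicle. They were chosen with their values known, and E2F1 and MCM7 did not pass in either fit.
E2F1, chr20:33686386-33686433, minus strand: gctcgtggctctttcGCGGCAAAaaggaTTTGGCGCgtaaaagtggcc
E2F2, chr1:23531253-23531290, minus strand: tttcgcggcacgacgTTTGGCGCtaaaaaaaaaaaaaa
DTL, chr1:212035725-212035747, plus strand: agagcgtgacgtcagTTTGGCGC
UHRF1, chr19:4909472-4909500, plus strand: aaatgccgagttttcGCGGGAAAaaaatc
HELLS, chr10:94545697-94545787, plus strand: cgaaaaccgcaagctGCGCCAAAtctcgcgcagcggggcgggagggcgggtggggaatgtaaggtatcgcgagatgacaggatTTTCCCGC
MCM3, chr6:52284894-52284931, minus strand: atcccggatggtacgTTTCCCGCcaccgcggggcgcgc
MCM7, chr7:100101398-100101446, minus strand: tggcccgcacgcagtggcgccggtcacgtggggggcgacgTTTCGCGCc
PCNA, chr20:5126659-5126696, minus strand: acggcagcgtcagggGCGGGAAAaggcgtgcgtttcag
MCM6, chr2:135876507-135876610, minus strand: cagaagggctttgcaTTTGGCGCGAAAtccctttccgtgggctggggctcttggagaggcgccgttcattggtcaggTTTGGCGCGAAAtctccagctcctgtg
LIG1, chr19:48170436-48170473, minus strand: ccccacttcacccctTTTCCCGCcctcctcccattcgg
The MCM6 window held 4 such words in 2 overlapping pairs, the most of any member. The MCM3 and MCM7 windows held 2 words each, of which 1 is shown, and the other word of MCM7 lay farther upstream. The 26 members with the word had a median log2 fold change (Aβ42 over vehicle) of -0.31, and 16 of them fell once replicate number was added to the fit (given beside the results). For the 19 matched members without the word the median was -0.25 and 6 fell, against 7.05% of all genes in that fit. The difference between the sets was not tested. A match describes letters in this window and is not evidence of binding.

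Libraries held 16465390 to 16742958 estimated counts, and members had from 30 to 1846 counts in a library. The forebrain label was checked first: in TPM (a transcript level scaled for gene length and library total), the cortical transcription factors EMX1 and EMX2 were at 21.9 to 26.2 and 32.0 to 40.9 over the 6 libraries, and TBR1 at 131.6 to 162.5. Aβ42 replicate 2 lay closer to vehicle than the other Aβ42 libraries, so counts that rest on it are also given without it. Omitting the treated library nearest vehicle widens the group differences by that choice, so values without it are no separate support. In edgeR's quasi-likelihood test over 13842 genes, 0 genes (0%) had an adjusted p-value under 0.05, while 1586 lower and 1716 higher genes had an unadjusted p-value under 0.05. Vehicle and Aβ42 libraries of the same replicate number deviated together, most of all those numbered 2 (correlation 0.388). The values of 0.181 for number 1 and 0.129 for number 3 did not stand out from the unmatched pairs of these numbers (0.177 and 0.154). A second fit that blocks on that number stands beside the results it changes, and it called 14.2% of all genes.

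The replication genes were lower with Aβ42 as a group. Of the 50, 45 had a log2 fold change below 0, against 49.3% of all genes, and their median was -0.29, against 0.00 over all genes tested. The log2 fold change was under -0.25 for 30 members (9.9% of all genes) and under -0.5 for 13 members (2.77% of all genes). No member passed over all genes in edgeR's quasi-likelihood test, with adjusted p-values from 0.0758 to 0.993. An unadjusted p-value under 0.05 was found for 28 lower members, against 11.5% of all genes, and for 1 higher member, against 12.4% of all genes. With the replicate block 25 members fell, against 7.05% of all genes, and 0 rose. All 25 also passed as lower without Aβ42 replicate 2, where 31 members did, against 11.6% of all genes as lower and 23.1% in either direction in that fit. Because that fit omits the Aβ42 library nearest vehicle, it is not separate support for the 25. The same limit holds for the fit without both libraries numbered 2. There 46 members had a log2 fold change below 0 (49.8% of all genes) and 30 passed as lower (8.5% of all genes). Leaving out Aβ42 replicate 1 lowered the count of 28 to 11 (7.41% of all genes in that fit), and leaving out Aβ42 replicate 3 gave 11 as well (6.4% of all genes). The count was 14 when vehicle replicate 2 was dropped (6.5% of all genes) and 18 when vehicle replicate 1 was (10.3% of all genes), so the share over all genes was also lower in these fits. As these are whole organoids, fewer cycling cells and less RNA per cycling cell cannot be told apart.

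**Figure D1:**
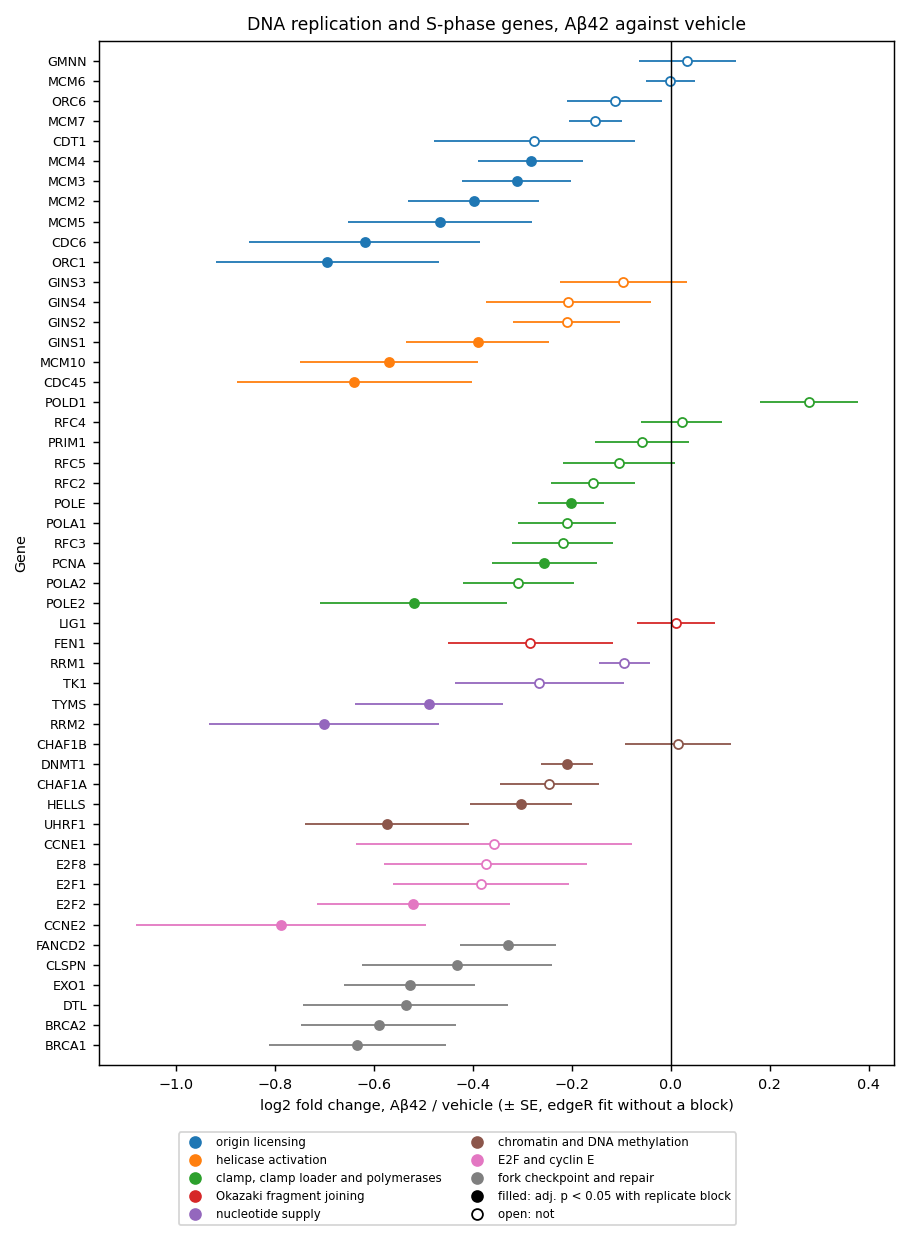
Log2 fold change of each of the 50 genes (x axis, points, with bars of ± 1 SE from edgeR's fit without a block), grouped and coloured by role on the y axis; filled points passed an adjusted p-value of 0.05 with the replicate block. The 25 filled points all lie below 0, all 6 genes of fork checkpoint and repair among them, and POLD1 lies farthest above 0.

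The libraries differed within the Aβ42 group. The median deviation of the members from their own mean over all libraries, in log2 CPM (counts relative to TMM-scaled library size), was positive for the 3 vehicle libraries (0.15, 0.21 and 0.10 by replicate number). For Aβ42 the values by number were -0.24, 0.09 and -0.30, so replicate 2 was the 1 Aβ42 library with a median above 0. It was the highest of the 3 Aβ42 libraries for 43 of 50 members. It lay below all vehicle libraries for 19 members, whereas Aβ42 replicate 1 did so for 43 and Aβ42 replicate 3 for 41. The lowest library was Aβ42 replicate 3 for 26 members and Aβ42 replicate 1 for 19, and the highest was vehicle replicate 2 for 28. In CPM the groups did not overlap for 17 lower members, against 13.4% of all genes, and for 1 higher member, against 13.6% of all genes. The TPM summed over the 50 genes came to 1247, 1323 and 1234 for the vehicle libraries, and Aβ42 exposure gave 989.8, 1195 and 951.8, without overlap. The mean with Aβ42 was 0.825 of that in vehicle. Lists with a median log2 fold change near 0 were also below vehicle in summed TPM. The ratio was 0.948 for repair genes outside S phase and 0.9355 for neuronal genes, but 1.019 for radial glia genes. The 0.825 is therefore not the size of the difference on the CPM scale. TTR, the transthyretin gene that dominates choroid plexus RNA, was highest in the libraries numbered 2 of both groups (7487 and 6581 TPM, against 2805 to 3925 in the other 4 libraries). The summed choroid plexus markers (TTR, CLIC6, AQP1, FOLR1 and KCNJ13), nearly all TTR, were at 7555 and 6650 TPM against 2835 to 3959. CLIC6 and KCNJ13 had the same order, while AQP1 was highest in replicate 1 within vehicle and FOLR1 was higher in vehicle replicate 3 (9.86 TPM) than in Aβ42 replicate 2 (8.04 TPM). The part of choroid plexus cells in the position of Aβ42 replicate 2 was not tested.

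**Figure D2:**
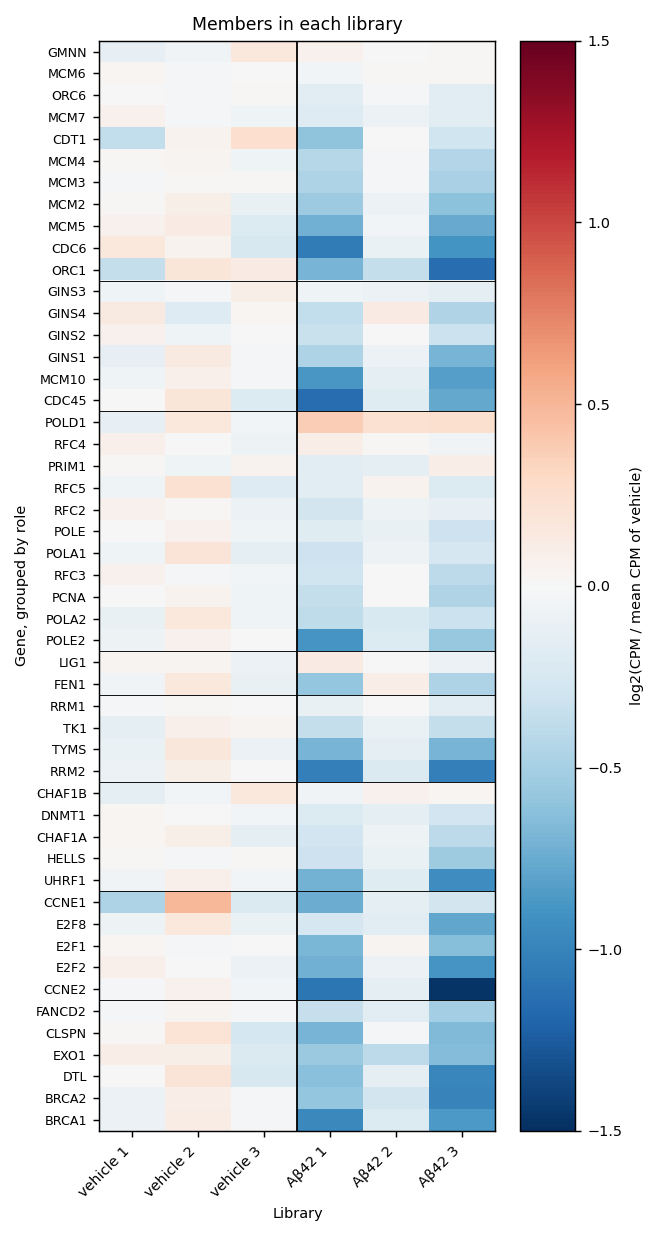
Colour gives log2 of CPM over the mean vehicle CPM for each gene (y axis, grouped by role, lines between roles) in each library (x axis, vehicle left of the vertical line). Aβ42 replicates 1 and 3 are mostly blue (lower), and Aβ42 replicate 2 is near white for most genes.

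Among the 11 licensing genes 10 were lower, 7 of them at an unadjusted p-value under 0.05, and with the replicate block 6 fell (ORC1, CDC6 and MCM2 to MCM5). For this and each role below, the shares over all genes were 11.5% lower at that unadjusted p-value and 7.05% lower with the block. ORC1, the ATPase subunit of the origin recognition complex that accumulates in G1, was at 4.03, 5.84 and 5.61 CPM in vehicle and 3.17, 4.04 and 2.34 CPM with Aβ42. Its ranges met only between vehicle replicate 1 and Aβ42 replicate 2, and its log2 fold change was -0.69 ± 0.23 (SE; adjusted p-value 0.115 in edgeR's test, 0.022 with the replicate block). CDC6, which recruits the MCM ring with ORC, had 9.852, 9.181 and 7.501 CPM in vehicle and 4.27, 8.26 and 4.74 CPM with Aβ42, with Aβ42 replicate 2 inside the vehicle range; its log2 fold change of -0.62 was -0.97 without that library. ORC6, the smallest ORC subunit, overlapped between groups (12.3 ± 0.141 and 11.4 ± 0.695 CPM, mean ± SD, n = 3 each). CDT1, the MCM loading factor destroyed once S phase begins, had a log2 fold change of -0.28 ± 0.20 with overlapping groups, and between -0.13 without vehicle replicate 3 and -0.44 without Aβ42 replicate 2. Geminin (GMNN), the protein that blocks CDT1 until mitosis is over, was at 13.70, 14.41 and 16.71 CPM in vehicle and 15.66, 15.02 and 15.18 CPM with Aβ42. The groups of GMNN overlapped, and its log2 fold change of 0.03 ± 0.10 turned negative without vehicle replicate 1 (-0.03) and on the log2(TPM + 1) scale (-0.02). The TPM ratio of CDT1 to GMNN overlapped too, at 0.162 ± 0.0219 in vehicle and 0.132 ± 0.0259 with Aβ42 (mean ± SD, n = 3 each).

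The 6 subunits of the MCM ring had unequal levels and fold changes, although the ring holds 1 copy of each, and differences between subunits were not tested. On the TPM scale MCM7 was the most abundant in vehicle (119, 115 and 109.6), followed by MCM4 (51.5, 53.5 and 49.4), MCM6 (49.4, 48.8 and 49.0), MCM3 (37.5, 39.8 and 39.6), MCM2 (34.4, 37.1 and 31.9) and MCM5 (11.9, 12.7 and 10.3). MCM4 was above MCM6 in each vehicle library, but its lowest value (49.44) barely cleared the highest of MCM6 (49.43). With Aβ42 replicates 1 to 3, MCM7 had 96.0, 104.9 and 96.2 TPM, MCM4 37.2, 49.9 and 36.1, MCM3 27.4, 37.3 and 26.3, MCM2 22.9, 31.8 and 21.4, and MCM5 6.88, 11.2 and 6.38. In MCM4 and MCM5 the values of Aβ42 replicate 2 were inside the vehicle range, and in MCM2, MCM3 and MCM7 they lay just below it on this scale. MCM5 had the largest difference of the ring (log2 fold change -0.47 ± 0.19, adjusted p-value 0.171 in edgeR's test and 0.016 with the replicate block), then MCM2 (-0.40 ± 0.13, 0.129 and 0.00305), MCM3 (-0.31 ± 0.11, 0.141 and 0.0201) and MCM4 (-0.28 ± 0.11, 0.159 and 0.0144). Without Aβ42 replicate 2 the log2 fold changes of MCM5, MCM3 and MCM4 were -0.74, -0.48 and -0.44. MCM7 was lower by less (-0.15 ± 0.05, 0.129 and 0.079), with no overlap in CPM. MCM6 stood at 46.5, 48.7 and 47.3 TPM with Aβ42, and its log2 fold change was -0.00 ± 0.05 (adjusted p-value 0.993 in edgeR's test). That value changed sign under upper-quartile scaling (0.01), and on the TPM scale its 3 Aβ42 libraries lay below the 3 vehicle libraries by as little as 48.70 against 48.76. Relative to MCM6, the TPM of MCM2 was 0.703 ± 0.0549 in vehicle and 0.532 ± 0.106 with Aβ42 (mean ± SD, n = 3 each), where Aβ42 replicate 2 (0.653) lay just above vehicle replicate 3 (0.652). The ratio of MCM7 to MCM6 was 2.33 ± 0.0841 and 2.08 ± 0.0635, without overlap. Those of MCM3, MCM4 and MCM5 to MCM6 overlapped between groups, as did that of MCM2.

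**Figure D3:**
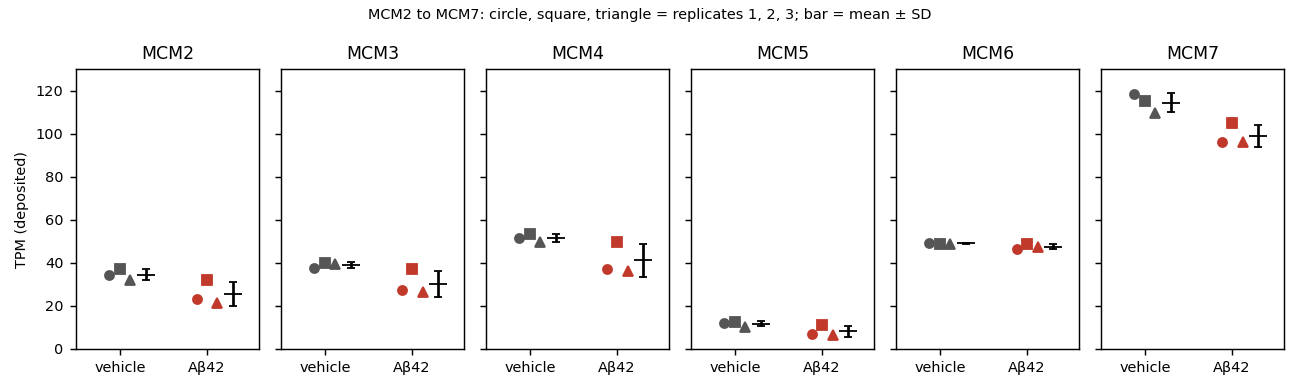
Deposited TPM (y axis, from 0) of MCM2 to MCM7 in vehicle (grey) and Aβ42 (red) libraries, with marker shapes for replicates 1 to 3 and bars for mean ± SD. MCM6 stays between 46.5 and 49.4 TPM in all libraries, while Aβ42 replicates 1 and 3 are below vehicle for MCM2, MCM3, MCM4, MCM5 and MCM7.

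All 6 helicase activation genes were lower, 3 at an unadjusted p-value under 0.05, and these 3 (MCM10, CDC45 and GINS1) fell with the replicate block. MCM10, which helps switch the loaded ring into an active helicase, was at 12.01, 13.19 and 12.38 CPM in vehicle and 6.83, 11.4 and 7.08 CPM with Aβ42. The groups of MCM10 did not overlap (log2 fold change -0.57 ± 0.18, adjusted p-value 0.115 in edgeR's test, 0.00768 with the block). CDC45, the helicase partner, had 4.69, 5.35 and 4.09 CPM in vehicle against 2.13, 4.16 and 2.76 CPM, so Aβ42 replicate 2 was above vehicle replicate 3. Among the GINS subunits, which act as 1 complex, the log2 fold change ran from -0.39 ± 0.14 for GINS1 over -0.21 ± 0.11 for GINS2 and -0.21 ± 0.17 for GINS4 to -0.10 ± 0.13 for GINS3. GINS3 was at 6.19, 6.38 and 6.89 CPM in vehicle and 6.22, 6.12 and 5.88 CPM with Aβ42. Without Aβ42 replicate 3, GINS1 was at -0.26 and GINS4 at -0.10. Without Aβ42 replicate 2, GINS2 was at -0.33 and GINS4 at -0.41, and without vehicle replicate 3 GINS3 was at -0.05.

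In the polymerases, clamp and clamp loader, 9 of 11 were lower with a median log2 fold change of -0.20, and 3 fell with the replicate block (PCNA, POLE and POLE2). PCNA, the most abundant member, was at 153, 160.0 and 148 TPM in vehicle and 115, 150.2 and 106 TPM with Aβ42, where replicate 2 lay within the vehicle range. Its log2 fold change was -0.26 ± 0.11, which became -0.41 without that library and -0.16 without Aβ42 replicate 3. The ratio of MCM2 to PCNA was 0.225 ± 0.00775 in vehicle and 0.205 ± 0.00644 with Aβ42 (TPM, mean ± SD, n = 3 each), without overlap. POLE, the catalytic subunit of the leading strand polymerase, had 54.6, 56.8 and 52.1 CPM in vehicle and 48.2, 50.2 and 43.9 CPM with Aβ42, without overlap (log2 fold change -0.20 ± 0.07, adjusted p-value 0.119 in edgeR's test, 0.0386 with the block). Its partner subunit POLE2 was lower by more (-0.52 ± 0.19, 0.141 and 0.047). In contrast to POLE, POLD1, the catalytic subunit of polymerase delta on the lagging strand, was higher in all 3 Aβ42 libraries: 12.6, 15.3 and 13.4 CPM in vehicle, 17.7, 16.2 and 16.3 CPM with Aβ42. POLD1 did not pass in edgeR's test (log2 fold change 0.28 ± 0.10, adjusted p-value 0.133, 0.0746 with the block), and its log2 fold change was between 0.22 and 0.39 in all 18 alternatives. The TPM ratio of POLE to POLD1 was 1.68 ± 0.135 in vehicle and 1.19 ± 0.0987 with Aβ42, without overlap. Polymerase alpha and primase start each fragment, and their members had log2 fold changes of -0.21 (POLA1), -0.31 (POLA2) and -0.06 (PRIM1). POLA1 was at -0.11 without vehicle replicate 2, and PRIM1 ran from -0.14 without Aβ42 replicate 3 to -0.01 without Aβ42 replicate 1. Of the clamp loader subunits, RFC4 was at 20.4, 19.3 and 18.5 CPM in vehicle and 20.8, 19.6 and 18.8 CPM with Aβ42. The RFC4 value (0.02 ± 0.08) turned negative on the log2(TPM + 1) scale (-0.06), without vehicle replicate 3 (-0.01) and without Aβ42 replicate 1 (-0.02). RFC2 was at -0.16 (-0.10 without Aβ42 replicate 1), RFC3 at -0.22 (-0.34 and -0.14 when Aβ42 replicates 2 and 3 were left out in turn) and RFC5 at -0.10, with values from -0.19 without vehicle replicate 3 to 0.02 without vehicle replicate 2. Neither Okazaki fragment gene passed with or without the block. FEN1, the flap nuclease, had 19.2, 22.2 and 18.4 CPM in vehicle and 13.4, 21.3 and 14.5 CPM with Aβ42, so replicate 2 lay inside the vehicle range; the log2 fold change of -0.28 was -0.52 without it and -0.16 without Aβ42 replicate 1. LIG1, the ligase that seals the fragments, was at 29.6, 29.6 and 27.0 CPM in vehicle and 31.3, 28.5 and 27.0 CPM with Aβ42, a log2 fold change of 0.01 ± 0.08 that turned negative on the log2(TPM + 1) scale (-0.04), without vehicle replicate 3 (-0.03) and without Aβ42 replicate 1 (-0.05).

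All 4 nucleotide supply genes were lower, and RRM2 and TYMS fell with the replicate block. Ribonucleotide reductase joins a large subunit, RRM1, to a small subunit, which is the S-phase protein RRM2 or the p53-inducible RRM2B. RRM2 was at 49.5, 56.1 and 52.7 CPM in vehicle and 25.9, 45.4 and 26.0 CPM with Aβ42, below vehicle in every Aβ42 library (-0.70 ± 0.23 on the log2 scale, adjusted p-value 0.154 in edgeR's test and 0.0381 with the replicate block). RRM1 was at 104.5, 107.5 and 105.8 CPM against 97.8, 105.2 and 94.9 CPM, a log2 fold change of -0.09 ± 0.05. RRM2B, which is not a member, was higher without overlap (61.7, 62.7 and 62.6 TPM in vehicle; 88.3, 69.3 and 78.9 TPM with Aβ42; 0.38 ± 0.08 on the log2 scale, adjusted p-value 0.0691 in edgeR's test, 0.00132 with the block). In TPM the RRM2 to RRM1 ratio lay at 0.452, 0.499 and 0.476 for vehicle against 0.25, 0.411 and 0.262 for Aβ42. The RRM2B to RRM1 ratio was higher with Aβ42, at 0.695, 0.67 and 0.687 against 1.08, 0.78 and 1.01, and neither ratio overlapped between groups. TYMS, thymidylate synthase, whose counts were not whole and whose gene overlaps ENOSF1, had 25.1, 30.3 and 25.4 CPM in vehicle and 16.6, 24.2 and 16.6 CPM with Aβ42 (-0.49 ± 0.15, adjusted p-value 0.114 in edgeR's test, 0.00126 with the block). TK1, the thymidine salvage kinase, was at 3.79, 4.38 and 4.27 CPM against 3.23, 3.86 and 3.24 CPM, with overlap through Aβ42 replicate 2, and did not pass.

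**Figure D4:**
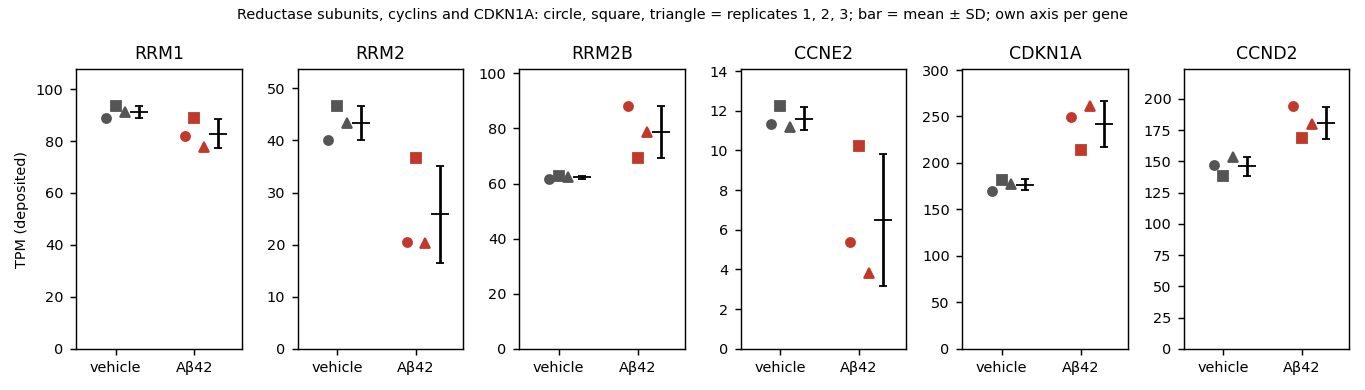
Deposited TPM (y axes from 0, 1 scale per gene) of the ribonucleotide reductase subunits RRM1, RRM2 and RRM2B, cyclin E2 (CCNE2), CDKN1A and cyclin D2 (CCND2) in vehicle (grey) and Aβ42 (red), with marker shapes for replicates 1 to 3 and bars for mean ± SD. RRM2 and CCNE2 are lower and RRM2B, CDKN1A and CCND2 higher in every Aβ42 library than in any vehicle library.

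Chromatin and DNA methylation genes copy the packaging and marks of the parent strand, and 4 of 5 were lower, 3 of which (UHRF1, DNMT1 and HELLS) fell with the block. UHRF1, which reads hemimethylated DNA and brings in the methyltransferase, was at 26.4, 28.8 and 26.5 CPM in vehicle and 16.6, 23.9 and 14.3 CPM with Aβ42 (-0.57 ± 0.17, adjusted p-value 0.107 in edgeR's test, 0.00254 with the block). DNMT1, that maintenance methyltransferase, had a smaller and tighter difference, 91.8, 89.6 and 87.3 CPM against 77.9, 80.8 and 73.7 CPM (-0.21 ± 0.05, 0.076 and 0.0179). Neither gene overlapped between groups. HELLS, a chromatin remodeller, was at -0.30 ± 0.10, and at -0.20 without Aβ42 replicate 3. The largest subunits of the histone chaperone CAF-1 had log2 fold changes of -0.25 ± 0.10 for CHAF1A and 0.02 ± 0.11 for CHAF1B. CHAF1B was at 11.1, 11.8 and 13.6 CPM in vehicle and 11.7, 12.7 and 12.4 CPM with Aβ42, and its sign changed in 7 of 18 alternatives, 1 of them without Aβ42 replicate 2 (-0.01).

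The E2F and cyclin E genes were all lower, 2 of 5 at an unadjusted p-value under 0.05, and the same number fell with the block (E2F2 and CCNE2). Cyclin E activates CDK2 at the G1/S boundary. CCNE2 had the most negative log2 fold change of all members (-0.79 ± 0.29, adjusted p-value 0.165 in edgeR's test, 0.0316 with the block), with 10.8, 11.4 and 10.6 CPM in vehicle and 5.18, 9.86 and 3.96 CPM with Aβ42. CCNE1 spread widely within vehicle: 2.22, 4.32 and 2.62 CPM in vehicle and 1.83, 2.79 and 2.52 CPM with Aβ42, and its log2 fold change of -0.36 became -0.02 without vehicle replicate 2, -0.54 without vehicle replicate 1 and -0.20 without Aβ42 replicate 1. The TPM ratio of CCNE2 to CCNE1 overlapped between groups (mean 2.7 with SD 0.838 in vehicle, 1.79 with SD 0.706 with Aβ42). E2F2, an activator, had 7.87, 7.42 and 7.01 CPM against 4.51, 7.01 and 4.02 CPM, and Aβ42 replicate 2 (7.007) lay just below vehicle replicate 3 (7.013). E2F1, also an activator, was at 12.38, 11.98 and 12.08 CPM in vehicle and at 7.56, 12.53 and 7.80 CPM with Aβ42, where replicate 2 was the highest of the 6 libraries. E2F8, a repressor E2F and the least abundant member, was at 2.69, 3.34 and 2.68 TPM against 2.35, 2.60 and 1.55 TPM and did not pass (adjusted p-value 0.289 in edgeR's test, 0.182 with the block). Without Aβ42 replicate 2 the log2 fold changes of CCNE2, E2F2 and E2F1 were -1.26, -0.80 and -0.66, while CCNE2 was at -0.54 without Aβ42 replicate 3. E2F1 was at -0.25 without Aβ42 replicate 1, and E2F8, at -0.37 over all libraries, was at -0.21 without Aβ42 replicate 3.

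Fork checkpoint and repair was the role in which every member (6 of 6) was lower at an unadjusted p-value under 0.05, and all 6 fell with the block, with a median log2 fold change of -0.53. EXO1, an exonuclease of mismatch repair and break resection, was at 10.4, 10.3 and 8.36 CPM in vehicle and 6.58, 7.36 and 6.18 CPM with Aβ42, and it had the smallest adjusted p-value of the members (-0.53 ± 0.13, 0.0758 in edgeR's test, 0.00983 with the block). In EXO1 Aβ42 replicate 2 stood with the other Aβ42 libraries. BRCA2, a mediator of homologous recombination that protects stalled forks, was at 14.60, 16.66 and 15.31 CPM against 10.4, 12.8 and 7.74 CPM (-0.59 ± 0.16, 0.0846 and 0.00353). BRCA1, which acts upstream of it, had a log2 fold change of -0.63 ± 0.18, and FANCD2, the protein monoubiquitinated at crosslinks, one of -0.33 ± 0.10, both without overlap. CLSPN (claspin), the adaptor between the checkpoint kinases ATR and CHK1, had 11.5, 13.2 and 9.51 CPM against 7.01, 11.2 and 7.20 CPM, with Aβ42 replicate 2 inside the vehicle range and a log2 fold change of -0.43, or -0.68 without it. DTL, the ubiquitin ligase adaptor that removes CDT1 on PCNA, was at -0.54 ± 0.21, also with overlap.

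Genes outside the 50 were set beside them by list. Of all 13842 genes tested, 976 (7.05%) fell and 986 rose with the block. Of 34 further replication factors, 21 were lower and 13 higher, with a median log2 fold change of -0.07. The block called 2 lower (NASP and TOPBP1) and 2 higher (POLD2 and DONSON), no larger a share than over all genes in either direction. POLD2, a partner subunit of POLD1, was at 0.24 ± 0.08 without overlap (adjusted p-value 0.124 in edgeR's test, 0.0249 with the block). Of 11 further nucleotide genes 10 were lower (median -0.15), and CTPS1 (-0.31 ± 0.09), which makes CTP, was among those that fell with the block. In the E2F and RB family 11 of 15 were lower (median -0.12), and MYBL2 (-0.90 ± 0.16), E2F7 (-0.54 ± 0.13), RBL1 (-0.52 ± 0.13) and RB1 (-0.20 ± 0.06) fell with the block, while TFDP2 was at 0.09. The 20 mitotic genes were all lower with a median of -0.46 (CENPE, a kinetochore motor, had the smallest p-value, at -0.51 ± 0.08). With the block 17 of them fell, against 7.05% of all genes. The groups did not overlap for 16, against 13.4% of all genes as lower. Those 20 were 19 lower and 1 higher without Aβ42 replicate 2, and whether they differ from the replication genes was not tested. Repair genes that do not depend on S phase were centred on 0 (median -0.01, 8 of 15 lower). With the block 1 of the 15 fell (OGG1, -0.29 ± 0.10), no larger a share than over all genes, while LIG4 was at 0.15.

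Among 11 CDKs, CDK inhibitors and D cyclins, 5 were lower and 6 higher, with a median log2 fold change of 0.13. CDKN1A (p21, the p53-induced CDK inhibitor) was at 170.3, 182 and 177 TPM in vehicle and 249.6, 214 and 262 TPM with Aβ42, above vehicle throughout. Its log2 fold change was 0.50 ± 0.08 (adjusted p-value 0.0684 in edgeR's test, 0.000309 with the block). It rose with the block, as did CDKN1C (0.73 ± 0.26) and CCND2 (0.35 ± 0.06), while CDKN2C (-0.57 ± 0.11) and CDK6 (-0.22 ± 0.07) fell.

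**Figure D5:**
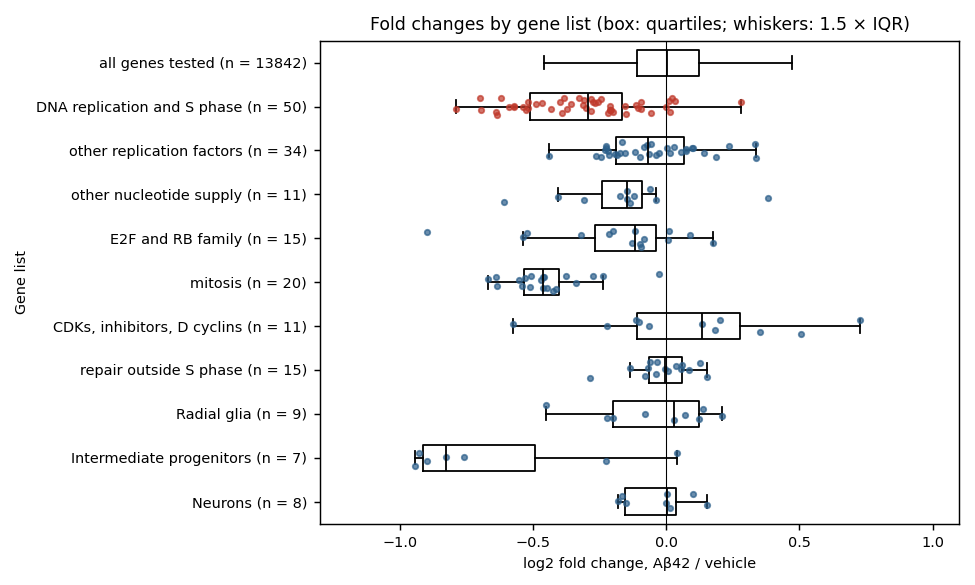
Log2 fold changes (x axis) of the 50 genes (red), of other lists (blue) and of all tested genes (box only), with boxes for quartiles and median and whiskers to 1.5 times the interquartile range. The medians are -0.29 for DNA replication and S phase, -0.07 for other replication factors, -0.46 for mitosis, -0.83 for intermediate progenitors and 0.03 for radial glia.

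Summed over 7 intermediate progenitor genes, TPM reached 260.3, 295 and 267 for vehicle but 203, 215 and 182 for Aβ42, without overlap. With the block 5 of the 7 fell, against 7.05% of all genes (median log2 fold change of the 7 without the block -0.83). EOMES, their defining transcription factor, was at 92.6, 115 and 91.5 TPM in vehicle and 52.3, 67.8 and 42.9 TPM with Aβ42. Its means were 99.6 and 54.3 TPM, against 274.2 and 199.9 TPM for the sum, so EOMES weighed heavily in it. NEUROG2 was at 78.2, 70.5 and 74.7 TPM in vehicle and 78.4, 68.9 and 74.9 TPM with Aβ42. Its groups overlapped, with a log2 fold change of 0.04. The 9 radial glia genes summed to 8357, 8523 and 8739 TPM in vehicle and 8584, 8621 and 8898 TPM with Aβ42, with a median log2 fold change of 0.03, but HOPX, NES and SLC1A3 fell with the block. The 8 neuronal genes summed to 4787 to 5031 TPM in vehicle and 4478 to 4739 TPM with Aβ42, but their median log2 fold change was 0.002. Of non-neural types, microglial markers together reached at most 1.21 TPM in any library with C1QA and C1QB listed at 0, and mesenchymal markers to 9.83 to 24.7 TPM in vehicle and 5.61 to 10.2 TPM with Aβ42. Astrocyte markers gave 54.4 to 81.9 TPM in vehicle and 40.6 to 62.0 TPM with Aβ42, with overlap. Some markers of other types fell with the block in edgeR's test: S100B (adjusted p-value 0.000941) and GJA1 (0.00053) of astrocytes, DCN (2.283e-06) of mesenchyme and CLIC6 (0.000309) of choroid plexus. So did MAP2 (0.0229) and TUBB3 (0.0291) of neurons and TBR1 (0.0203) of the dorsal forebrain list. GJA1, DCN and CLIC6 overlapped between groups, with adjusted p-values of 0.36, 0.26 and 0.57 in edgeR's test without the block. Other markers of these lists were higher, though none of them passed with the block: ALDH1L1 (log2 fold change 0.33), AQP1 (0.59), COL1A1 (0.46) and SNAP25 (0.15). Of the 8 neuronal genes 4 were lower and 4 higher. The part of these cell types in the lower replication transcripts was not tested.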

How the data were processed

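RNA sequencing of 6 libraries, 3 per group, was used as deposited. The table the authors deposited lists, for each gene, estimated counts and TPM; 12.5% to 13.1% of the count values in a library were not whole. Per the submitters' processing notes, FastQC, STAR 2.7.11b, featureCounts 2.0.6 and GRCh38 were named without a role or order. The annotation and strand setting are not given in the sources used here. Counts of TYMS, RFC5 and CCNE2 were whole in no library, and those of RRM2 and POLA2 not in all, so some of their reads may have been divided with other features.

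Counts were rounded, filtered (filterByExpr), scaled (TMM) and tested with edgeR 4.0.16 (quasi-likelihood, robust, two-sided, Benjamini-Hochberg over 13842 genes, threshold 0.05) in R 4.3.3. limma 3.58.1 and DESeq2 1.42.0 served as alternatives. The fits were tested on simulated data with a common dispersion and no outlying library or replicate structure. That run does not show how they handle Aβ42 replicate 2 or the pairing by number. SE was derived from the log2 fold change and the F statistic. CPM is TMM-scaled, and TPM is used to compare levels between genes. The biological coefficient of variation was 6.75%. No 2 libraries were duplicates (chi-square per gene at least 3.16 over 12186 genes).

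The members and lists were chosen with earlier results of these data known. Every member was examined. Values per library were printed for the 2 smallest and the largest p-value in each role, members with the opposite sign, the most and least abundant, and MCM2 to MCM7; other printed members were chosen after their values were seen. From other lists the gene with the smallest p-value in a direction is named, and further genes called with the replicate block were chosen after their values were seen. Deviations from group means of libraries with the same number correlated at 0.181, 0.388 and 0.129 over 12186 genes. All are above 0.1, so libraries of equal number were treated as pairs; this comes from the data, not the labels, and rests mainly on number 2. Differently numbered libraries gave -0.302 to 0.177. Results of some genes in the lists are not reported here.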

Additional observations from a re-analysis of the deposited data

How the results depend on the processing

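The median log2 fold change of the members stayed negative in all 18 alternatives, from -0.43 when Aβ42 replicate 2 was left out to -0.22 when Aβ42 replicate 3 was, and 44 to 49 members were lower. The 49 came from log2(TPM + 1) and log2(TPM + 0.1). The fit without both libraries numbered 2 was chosen after the data were seen. Members past the adjusted threshold as lower were 0 in the main analysis and 6 by the DESeq2 Wald test, 25 with the replicate block, 28 with limma-voom and sample quality weights and 30 without both libraries numbered 2; leaving out 1 library gave 0 to 31. Higher, 1 member (POLD1) passed with quality weights and 1 without both libraries numbered 2. Over all genes, 171 lower and 189 higher were called without a filter on low counts, 426 and 383 by DESeq2, 976 and 986 with the replicate block, 1246 and 1211 with quality weights, and 1179 and 1137 without both libraries numbered 2; leaving out 1 library gave 0 to 1617 lower and 0 to 1607 higher. The cause of these differences was not tested. Members at an unadjusted p-value under 0.05 numbered 11 to 38 lower and 0 to 1 higher across the fits without 1 library, while all genes numbered 893 to 2587 lower and 978 to 2583 higher in the same fits, and the 1 higher member became 0 by DESeq2, on log2(TPM + 1) and on log2(TPM + 0.1). No overlap, lower, held for 24 members in TPM (18.6% of all genes) against 17 in CPM (13.4% of all genes). Of 900 values of single members, 122 crossed the threshold and 22, in 6 members, reversed. LIG1 was -0.036 with log2(TPM + 1) and -0.037 with log2(TPM + 0.1), and -0.048 to 0.058 across fits without 1 library. For RFC4 these were -0.061, -0.063 and -0.016 to 0.061. GMNN was -0.021 on both TPM scales and -0.025 to 0.12 leaving out 1 library. MCM6 was 0.014 under upper-quartile scaling and -0.014 to 0.019 leaving out 1 library, and RFC5 -0.19 to 0.021. CHAF1B was -0.012 with quality weights, -0.072 and -0.078 on the TPM scales, -0.032 without both libraries numbered 2 and -0.048 to 0.10 leaving out 1 library. Aβ42 replicate 2 had a quality weight of 0.395 and the other libraries 1 to 1.63. Members had 30 to 1846 counts in a library, and how far depth limits the calls was not tested.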

Other observations

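Members of low abundance had the more negative fold changes. The 25 least abundant members by mean TPM had a median log2 fold change of -0.43 and the 25 most abundant one of -0.21, with a Spearman correlation of 0.555 between level and fold change across the 50 genes. Genes are not independent replicates and share the same 6 libraries, so this is a description. Among the 5 members with the highest expression (PCNA, MCM7, RRM1, MCM6 and RFC4 by mean TPM), the log2 fold change was between -0.26 for PCNA and 0.02 for RFC4. All of these levels average vehicle and Aβ42 libraries, so a lower value with Aβ42 also lowers the rank. MCM4 (log2 fold change -0.28) ranked just behind RFC4, although in vehicle its mean was above that of RFC4 (51.5 against 47.3 TPM).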
